A study of Mus musculus with 22 samples.

Results

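Basal and stress keratins were followed in mouse bladder tumours that arose under a nitrosamine carcinogen and in normal bladder. The 7 genes were chosen by name, as Krt5, Krt14, Krt15, Krt6a, Krt6b, Krt16 and Krt17, out of 22911 genes with a symbol on the array, and all 7 were tested. RNA was taken from whole bladders of mice aged 8 months and hybridised to 22 one-colour Agilent arrays in 8 groups. Of these, 19 arrays in 7 groups came from mice given N-butyl-N-(4-hydroxybutyl)nitrosamine (BBN), a bladder carcinogen, in their drinking water for 24 weeks, and they are labelled bladder tumor. The other 3 arrays are the normal group, wild-type mice that had neither BBN nor tamoxifen and whose tissue is labelled as urothelium.

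The BBN groups differed in genotype. The Krt5-Cre group (2 arrays) carried Krt5-CreERT2 with LSL-RFP, and the Upk2-Cre group (2 arrays) carried Upk2-CreERT2 with LSL-RFP. The mutant groups carried in addition Trp53R270H/+ or Trp53R172H/+, alleles with a single-residue change in the DNA-binding domain of p53. They are the Krt5-Cre R270H group (3 arrays), the Krt5-Cre R172H group (4), the Upk2-Cre R270H group (2) and the Upk2-Cre R172H group (3). All 6 of these groups had tamoxifen, the drug that switches CreERT2 on, so their shared background is Cre, a red fluorescent reporter, tamoxifen and BBN. The Trp53 het group (3 arrays) has titles that read Trp53+/- and genotype entries that read Trp53R270H/+, with no Cre and no tamoxifen. The Krt5 promoter acts in basal urothelial cells and the Upk2 promoter in uroplakin-expressing cells, so a mutant allele can be switched on only where its driver is active. How many cells recombined was not measured here, and whether CreERT2 sits in the Krt5 gene itself is not given in the sources used here.

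Keratins are the intermediate filament proteins of epithelia, and each filament pairs a type I with a type II chain. Krt5 (type II) and Krt14 (type I) form the filaments of dividing basal cells, and Krt15 is a further type I keratin of basal cells. Krt6a and Krt6b (type II) and Krt16 and Krt17 (type I) are low in resting epidermis and are switched on by wounding, inflammation and hyperproliferation. In the bladder, Krt5 marks the basal layer of the urothelium, and basal and stress keratins are used to mark tumours with basal and squamous features.

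The sequence before the start of Krt5 is shown because this gene is a member and its promoter also drives Cre in 3 of the groups. It is the stretch of 250 bases just upstream of the start, at chr15:101712906-101713155 of GRCm38.p6, minus strand, from RefSeq, with a match to the p53 family decamer motif in capitals.
Krt5: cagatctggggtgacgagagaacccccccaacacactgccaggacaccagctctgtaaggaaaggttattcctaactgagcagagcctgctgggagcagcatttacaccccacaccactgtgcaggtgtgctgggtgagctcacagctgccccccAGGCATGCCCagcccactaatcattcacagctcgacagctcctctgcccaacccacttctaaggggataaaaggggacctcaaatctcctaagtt
The match begins 95 bases before the start. Both strands were searched, with motifs picked with the sequence in view, and 7.13% of 32851 promoter windows of this length hold such a match. The TATA box was searched only as the exact letters TATAAA, which 12.4% of the windows hold, and these were not found. The near form ataaaa stands close to the end of the sequence and was not searched. The AP-1 site TGANTCA, which 6.75% hold, was not found. The AP-2 site GCCNNNGGC, held by 13.7%, and the GC box GGGCGG, held by 32.7%, were not found either. A match is a description of letters and was not tested as a binding site.

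Levels are given on a log2 scale as the spot's signal minus the 75th percentile of its own array, so a level of 0 lies at that percentile. A gene was tested if it was well above background on at least 2 arrays, and changes are log2 differences ± SE from limma, with Benjamini-Hochberg adjusted p-values over all 17404 genes tested and calls at an adjusted p of 0.05 or less. Per array, 42.4% to 63.2% of spots passed the scanner software's test against background, and 0 were saturated. Arrays on the first of the scanner models (scanner 1, 11 BBN arrays) had fewer such spots, 42.4% to 57.2%, than those on the second (scanner 2, 8 BBN arrays and the 3 normals), 56.3% to 63.2%. The normals alone make up 1 slide. Xist and Y-linked genes did not match the labelled sex for all 3 normals and 8 BBN arrays, 11 of 22 in all. The 3 normals are labelled female, yet each lacked Xist and had 4 Y-linked genes above background. The BBN arrays are mixed in sex, both by label and by these genes. BBN against normal thus sets arrays of mixed sex against normals of 1 sex. The arrays Upk2-Cre 1 and 2 share an animal code, as do Trp53 het 1 and 2. The Upk2-Cre arrays do not hold RNA of 1 animal all the same: Xist was above background on array 1 alone, and Y-linked genes (4 of them) on array 2 alone. Trp53 itself, read by a probe that does not separate the alleles, lay at −1.12 ± 0.10 (SD, n = 3) in normals and −0.07 ± 1.03 (SD, n = 19) under BBN and was not called (log2 change 1.1, limma adjusted p = 0.0949).

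Of the 7 keratins, 6 rose in BBN bladders against normal bladders, and Krt15 did not pass the test. Of all genes, 23.7% were called higher in this comparison. The members' median change was 8.37 on the log2 scale, also when Krt6b is set at its bound, against 0.13 over all genes tested. Quantile normalization moved these medians to 8.18 and −0.02. By size of fitted change among 17404 genes, Krt6a ranked 3, Krt17 6, Krt16 41, Krt14 46, Krt5 2043 and Krt15 9358, and 1.22% of all genes were called at 32-fold higher or more. Krt6b is not ranked, because its rise is known only as a bound. For each of the 6 risen genes every BBN array lay above every normal array, which 13.6% of all genes showed. The 6 risen genes were also higher without the 8 BBN arrays that went against their sex label, and with the BBN arrays of the normals' scanner alone. The first of these settings leaves out all of Krt5-Cre R172H and the second both R270H groups. BBN was then the mean of the groups left, some of them with a single array. Neither of these settings was planned at the start.

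**Figure D1:**
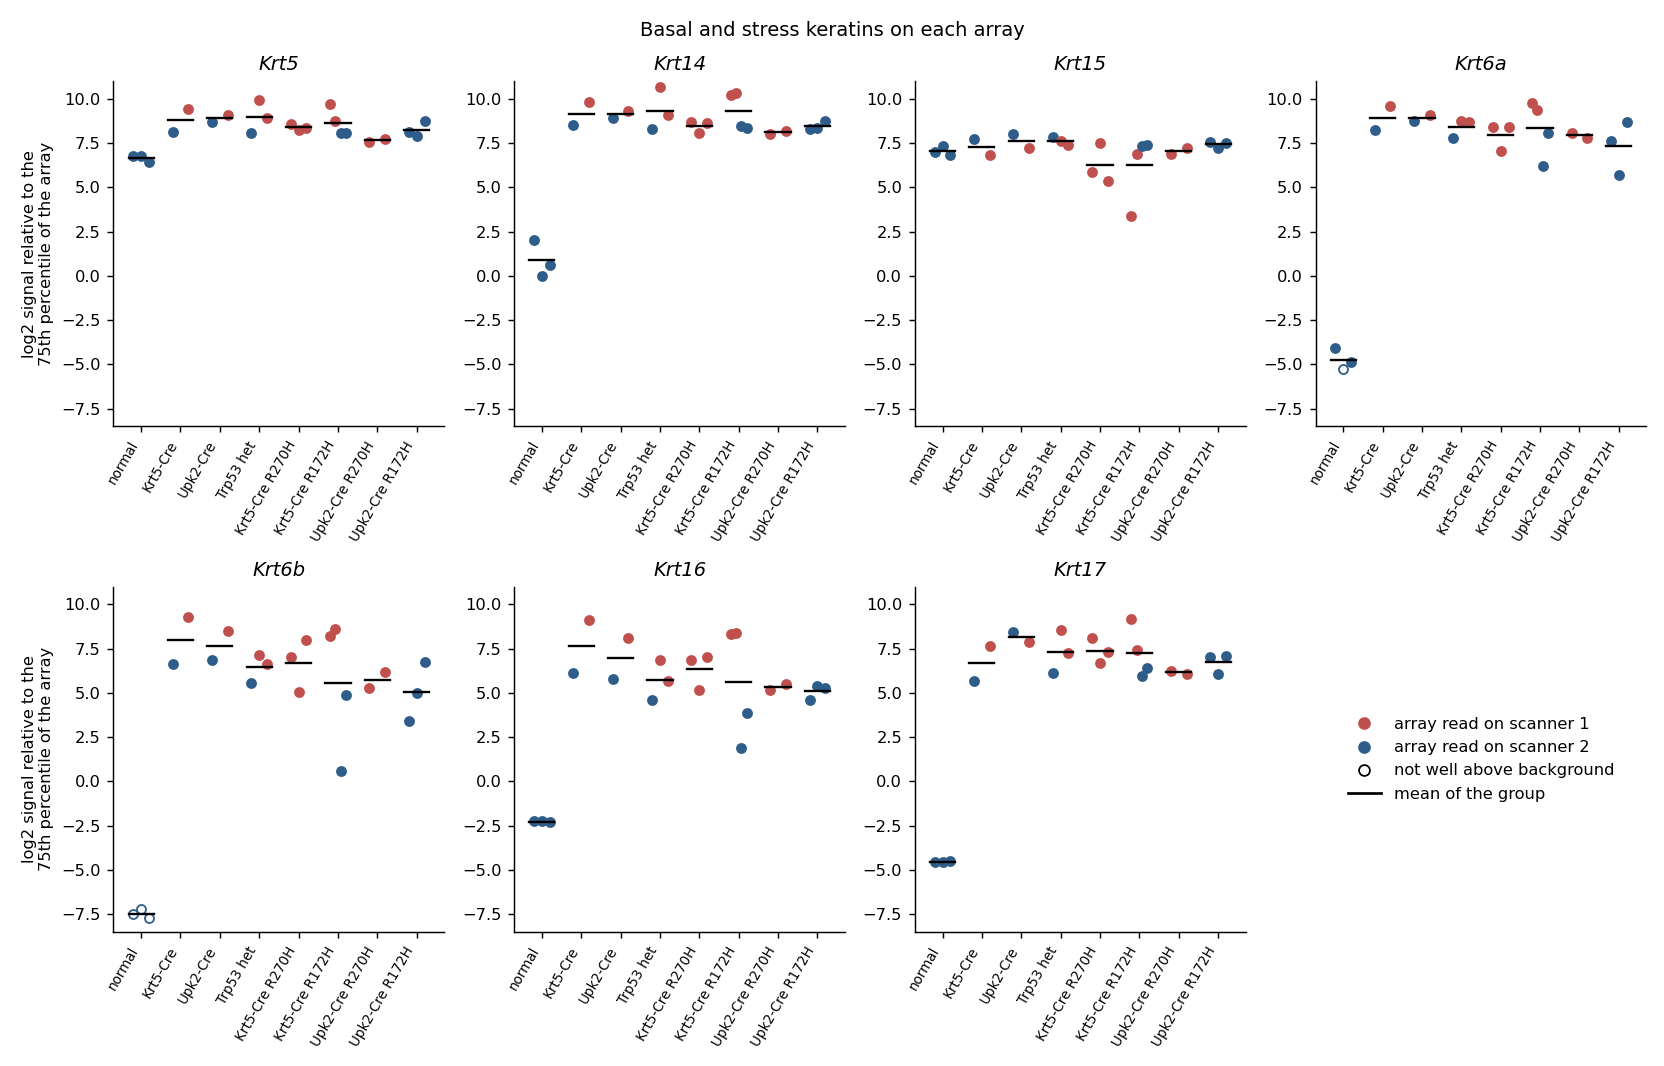
Level of each keratin (log2 of the signal relative to the array's 75th percentile, vertical axis) on each of the 22 arrays by group (horizontal axis), coloured by scanner, with the group mean as a bar and open symbols for values not well above background. The 3 normals lie below all 19 BBN arrays for 6 genes and among them for Krt15, and Krt5-Cre R172H array 1 stands lowest for Krt15 at 3.35.

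The basal keratins differed in how far they stood apart from normal bladder. Krt5, the type II chain of basal filaments, read 6.74, 6.77 and 6.42 in the 3 normals and between 7.56 and 9.91 under BBN, with a median of 8.37. Normal bladder thus had a clear Krt5 signal of its own, and the BBN arrays sat just above it with no overlap. The change was 1.87 ± 0.36, or 3.65-fold (limma adjusted p = 0.000687). Krt14, the type I partner of Krt5, read 2.03, 0.00 and 0.61 in the normals and from 8.02 to 10.66 under BBN, with a median of 8.66. The groups lay far apart, by 7.97 ± 0.50 or 251-fold (limma adjusted p = 2.25e-08), and the normals were also spread more widely than for any other member. Krt15 read 6.97, 7.32 and 6.81 in the normals and from 3.35 to 8.01 under BBN, with a median of 7.34. Here 10 BBN arrays lay above all normals, 3 lay below and the rest fell among them. The Krt15 change was 0.03 with a 95% interval from −1.24 to 1.31 (limma adjusted p = 0.967), and its sign turned with the scaling, to −0.28 after quantile normalization. On the normals' scanner alone, Krt15 was called higher, by 0.64 ± 0.16 (limma adjusted p = 0.0153).

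The stress keratins were low in normal bladder and high in every BBN bladder. Krt6a, a type II keratin of wounded epithelium, read −4.08, −5.28 and −4.86 in the normals, where 2 of 3 arrays were above background, and from 5.69 to 9.75 under BBN, with a median of 8.41. Its change was 13.00 ± 0.62 (limma adjusted p = 1.09e-09), with a wide gap between the groups. Krt6b, its close paralog, read −7.49, −7.20 and −7.72 in the normals, on 0 of 3 arrays above background. Under BBN it read from 0.60 to 9.31 with a median of 6.65, above background on all 19 arrays. Because it was measured on only one side, its rise is a bound, at least 3646-fold (limma adjusted p = 4.03e-07), set against each normal array's lowest signal well above background or the probe's own if higher. This reference averaged −5.53 over the normals, while Krt6a did not pass the background test at −5.28 on normal array 2. The bound thus holds for that reference, and a higher one would lower it.

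Krt16 and Krt17, the type I stress keratins, were above background on all 22 arrays. Krt16 read −2.25, −2.24 and −2.31 in the normals and from 1.90 to 9.12 under BBN, with a median of 5.70. The change was 8.37 ± 1.03 (limma adjusted p = 1.20e-05), and the second Krt16 probe gave 8.25. Krt17 read −4.56, −4.54 and −4.49 in the normals and from 5.68 to 9.19 under BBN, with a median of 7.09. Its change was 11.62 ± 0.56 (limma adjusted p = 1.09e-09). The normals agreed closely for both genes and no BBN array came near them.

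With the scanner as a block all 6 calls were kept, and the changes were smaller, at 1.22 for Krt5, 7.13 for Krt14, 12.13 for Krt6a, 6.30 for Krt16 and 10.73 for Krt17. Krt15 changed by 0.77 in that fit and was not called (limma adjusted p = 0.366). Whole bladders were extracted, so fewer cells of a type and less RNA per cell cannot be told apart. Normals are labelled urothelium and BBN arrays bladder tumor, so a difference in the tissue taken cannot be told apart from BBN. The summed level of 7 general epithelial markers ran from 5.64 to 5.79 in the normals and from 5.24 to 6.22 under BBN, so the ranges overlapped. The summed level of 9 luminal urothelial markers ran from 9.49 to 9.87 in the normals and from 3.89 to 6.77 under BBN, with Snx31 above background on none of the 19 BBN arrays. The part of these shifts in the keratin result was not tested.

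The rise in signal did not have the same size for the partners of a filament pair. Whether the probes respond alike from dim to bright signal was not tested. Because a level of one probe cannot be set against that of another, only the shift of the difference within an array, BBN minus normal, is given, over 6 pairs of genes with an exact two-sided permutation test over 1540 splits. Krt14 rose more than Krt5 by 6.12 log2 units, Krt17 more than Krt5 by 9.76, and Krt16 less than Krt6a by 4.69. Each of these had an exact p = 0.000649, the smallest that the splits allow, and an adjusted p of 0.0013, with 19 of 19 BBN arrays beyond all normals. Krt15 against Krt5 shifted by −1.93 in 19 of 19 arrays beyond the normals, with an exact p of 0.0532 and an adjusted p of 0.0799. That value depended on Krt5-Cre R172H array 1, and without it the shift was −1.67 with an adjusted exact p of 0.0102. Krt16 against Krt14 shifted by 0.25 and did not pass (exact p = 0.738). For Krt6b against Krt6a, with Krt6b above background on 0 of 3 normals, the shift is at least −1.12 if Krt6a is taken as read. Krt6a was itself above background on only 2 of 3 normals, so the shift may be lower still. Which of the paralogs rose more cannot be told.

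Taken group by group against normal, 41 of 49 tests were called, all of them higher. The 7 tests of Krt15 and 1 of Krt5 made up the rest. With the Krt5 driver, 6 of 7 members were called in Krt5-Cre, in its R270H group and in its R172H group, where 10.6%, 17.1% and 17.9% of all genes were called higher. With the Upk2 driver, 6 of 7 were called in Upk2-Cre (15.2% of all genes), 5 of 7 in its R270H group (10.2%) and 6 of 7 in its R172H group (11.4%). In Trp53 het 6 of 7 were called, where 17.5% of all genes were. These comparisons share the 3 normal arrays.

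Krt5 stood highest in Trp53 het at 8.96 ± 0.94 (SD, n = 3), followed by Upk2-Cre at 8.89 ± 0.26 (n = 2), Krt5-Cre at 8.77 ± 0.88 (n = 2) and Krt5-Cre R172H at 8.64 ± 0.78 (n = 4). Krt5-Cre R270H at 8.39 ± 0.16 (n = 3) and Upk2-Cre R172H at 8.25 ± 0.42 (n = 3) came next. Neighbours in this order overlapped down to that point. Upk2-Cre R270H, with arrays at 7.56 and 7.74, lay below all the other BBN groups without overlap and above all normals. Its Krt5 change against normal, 1.01, was not called (limma adjusted p = 0.187). It was called after quantile normalization (0.91, limma adjusted p = 0.0491), in the deposited values (0.86, adjusted p = 0.0450) and when only the arrays compared were fitted (1.01, adjusted p = 0.0162), and went to −0.071 with the scanner as a block.

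The Krt5 calls of 4 other groups also hung on single choices, with limma adjusted p-values. In Krt5-Cre the change of 2.13 fell to 1.51 without array 2 (0.227), and in Upk2-Cre the change of 2.25 fell to 2.07 without array 2 (0.0541). In Krt5-Cre R270H the change of 1.75 fell to 0.66 with the scanner as a block (0.306). In Upk2-Cre R172H the change of 1.61 fell to 1.37 without array 3 (0.0876) and to 1.5 without normal array 3 (0.0707). The calls of Trp53 het, 2.32, and Krt5-Cre R172H, 2.00, had adjusted p-values of 0.00189 and 0.00286.

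Krt14 was called in all 7 groups, with changes from 7.23 in Upk2-Cre R270H to 8.45 in Trp53 het. Its group means ran from 8.11 ± 0.12 (SD, n = 2) in Upk2-Cre R270H to 9.33 ± 1.21 (n = 3) in Trp53 het, and neighbours in the order overlapped except Upk2-Cre at 9.12 ± 0.27 and Upk2-Cre R172H at 8.47 ± 0.26. Krt15 was ordered otherwise. Upk2-Cre stood highest at 7.62 ± 0.55, the normals ranked sixth, and the Krt5-Cre R270H and Krt5-Cre R172H groups came last at 6.24 ± 1.14 and 6.25 ± 1.94. All 7 pairs of neighbours overlapped. The Krt5-Cre R270H arrays read 5.85, 7.53 and 5.35 and the Krt5-Cre R172H arrays 3.35, 6.91, 7.34 and 7.40, so both means were set by some of their arrays. The change against normal was −0.79 in both groups (limma adjusted p = 0.462 and 0.428), and in Krt5-Cre R172H it was 0.18 without array 1.

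Krt6a was called in all 7 groups, with changes from 12.07 in Upk2-Cre R172H to 13.65 in Krt5-Cre. Krt6b was called in all 7 groups as well. Its rise was at least 11574-fold in Krt5-Cre, 9460-fold in Upk2-Cre, 4061-fold in Trp53 het, 4792-fold in Krt5-Cre R270H, 2214-fold in Krt5-Cre R172H, 2453-fold in Upk2-Cre R270H and 1546-fold in Upk2-Cre R172H. The Krt6b level also moved with the scanner, and groups were unevenly divided between the scanners. Single arrays moved these bounds. With each array of a group left out in turn they ran from 4542 to 29491 in Krt5-Cre, from 5410 to 16543 in Upk2-Cre, from 3197 to 5523 in Trp53 het and from 3041 to 8488 in Krt5-Cre R270H. In Krt5-Cre R172H they ran from 1100.3 to 6995, the latter without array 3, in Upk2-Cre R270H from 1789 to 3364, and in Upk2-Cre R172H from 855 to 2755. Krt16 changes ran from 7.35 in Upk2-Cre R172H to 9.90 in Krt5-Cre, and Krt17 changes from 10.69 in Upk2-Cre R270H to 12.70 in Upk2-Cre, all called. For Krt6b and Krt16 every neighbouring pair of BBN groups overlapped, Krt17 likewise, and for Krt6a all but Upk2-Cre and Trp53 het.

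The design also sets the genotypes against each other under BBN, asking whether a mutant Trp53 allele, its kind or the cell type of its driver moved these keratins. No member was called in any of 6 such comparisons with limma, where 0.0115% of all genes were called for Krt5-Cre mutants against Krt5-Cre, 0.00575% for Upk2-Cre mutants against Upk2-Cre and for Krt5-Cre against Upk2-Cre mutants, and 0% in the other 3. At an unadjusted p under 0.05 there were between 578 and 1107 genes per comparison, and 2 tests of members, both of Krt17. The intervals were wide, so a change of several fold could go uncalled.

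With the Krt5 driver, the mutant groups together differed from Krt5-Cre by −0.26 for Krt5, −0.26 for Krt14, −1.04 for Krt15, −0.75 for Krt6a, −1.83 for Krt6b, −1.65 for Krt16 and 0.63 for Krt17. Without Krt5-Cre array 2 the sign turned for Krt5 (0.37) and Krt14 (0.40), and without array 1 for Krt17 (−0.36). The members' median was −0.75 and that of all genes 0.01. For Krt16 the 95% interval ran from −4.44 to 1.15, and with the slide as a fixed block the change was −3.19 and was called (limma adjusted p = 0.0337). With the slide as a random block 0 members were called. The Krt16 arrays read 6.15 and 9.12 in Krt5-Cre, 6.84, 5.18 and 7.03 in Krt5-Cre R270H and 8.34, 8.41, 1.90 and 3.84 in Krt5-Cre R172H. The mutants therefore spanned the controls' lower array and did not reach the higher one.

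With the Upk2 driver all 7 members had lower means in the mutants than in Upk2-Cre, with differences of −0.94 for Krt5, −0.83 for Krt14, −0.38 for Krt15, −1.26 for Krt6a, −2.28 for Krt6b, −1.74 for Krt16 and −1.72 for Krt17, none of them called. Krt15 alone changed sign, in 2 of 22 alternatives. The members' median was −1.26 and that of all genes −0.09. Krt17 read 8.47 and 7.86 in Upk2-Cre, 6.27 and 6.05 in Upk2-Cre R270H and 7.02, 6.08 and 7.09 in Upk2-Cre R172H, so the 2 controls lay above the 5 mutants. The same held for Krt14, Krt6a, Krt6b and Krt16, and not for Krt5 and Krt15. Between the lowest control and the highest mutant the margin was narrow for Krt6a (8.73 against 8.70) and Krt6b (6.87 against 6.77). The share of all genes with such a separation was not counted, so no result about the members is drawn from it. The Krt17 difference had a 95% interval from −3.32 to −0.12, with an unadjusted limma p of 0.0365 and an adjusted p of 0.785. The difference between drivers in the mutant change of Krt17 was 2.35, with an interval from 0.14 to 4.56 (limma unadjusted p = 0.0385, limma adjusted p = 0.998). It rests in part on the same Upk2-Cre arrays.

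Other differences under BBN were smaller or had intervals across 0. Krt5-Cre mutants against Upk2-Cre mutants differed by 0.56 for Krt5, 0.60 for Krt14, 0.52 for Krt6a, 0.74 for Krt6b, 0.77 for Krt16 and 0.86 for Krt17, and by −1.0 for Krt15 with an interval from −2.22 to 0.22 (limma adjusted p = 0.886). The sign turned for Krt6b (−0.075) and Krt16 (−0.11) once scanner was a block. All R270H arrays of the Krt5 driver were on scanner 1, and its R172H arrays were on both scanners. R270H against R172H with the Krt5 driver differed by between −0.85 for Krt14 and 1.11 for Krt6b. Krt14 alone kept its sign there in every alternative, and Krt6b turned to −0.52 with the scanner as a block and −0.55 without Krt5-Cre R172H array 3. Trp53 het against the 2 Cre control groups differed by between −1.58 for Krt16 and 0.20 for Krt14, where Krt14 turned to −0.059 after quantile normalization. Krt5, Krt15 and Krt17 changed sign in some alternatives as well, and Krt6a, Krt6b and Krt16 in none. The Trp53 het comparison also sets mice without tamoxifen against mice with it.

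**Figure D2:**
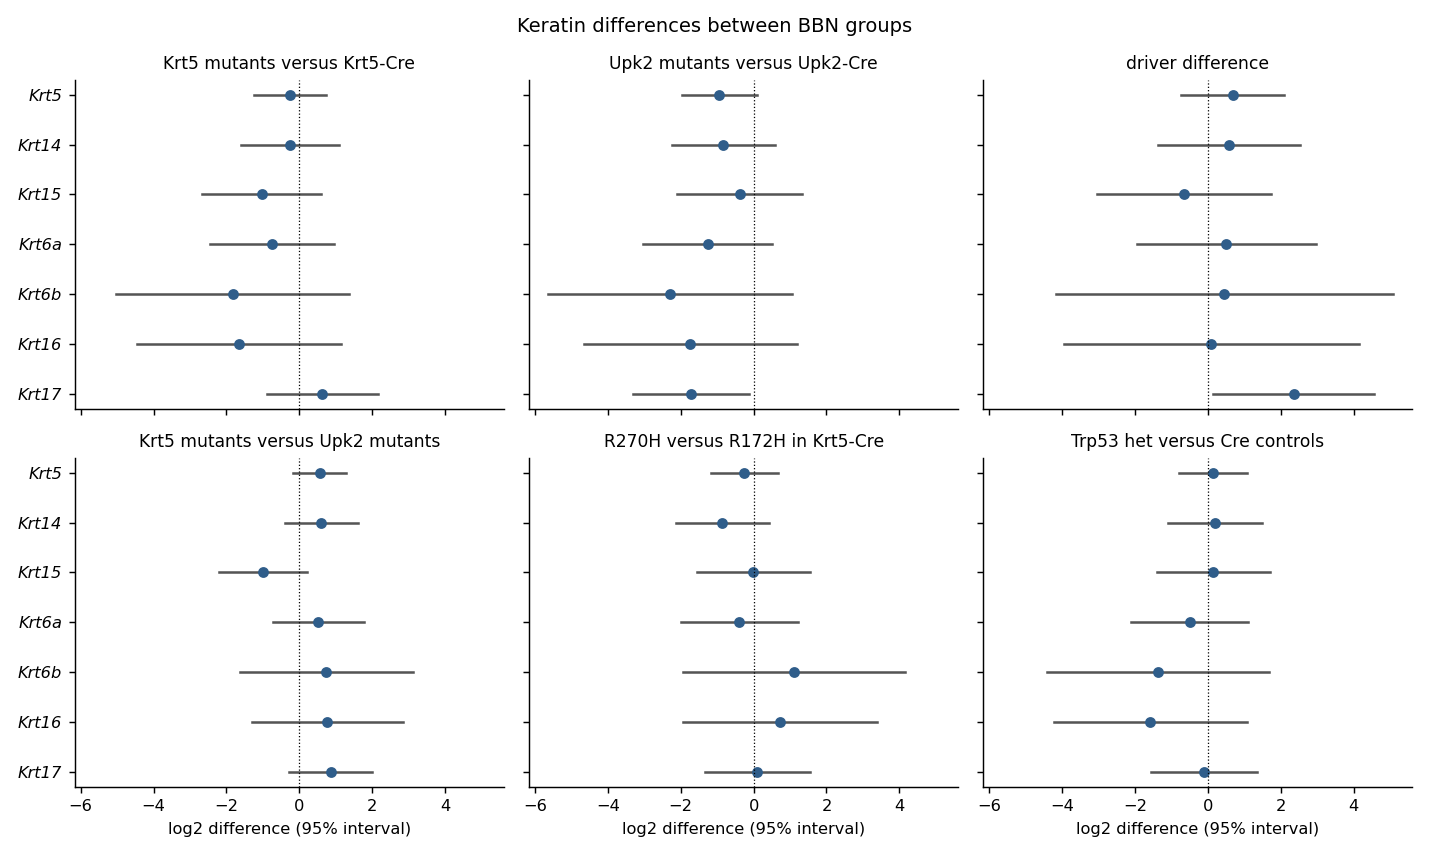
Log2 difference (horizontal axis) of each keratin in the 6 comparisons among BBN groups, with the limma estimate as a point and its 95% interval as a line. Nearly all intervals cross 0, and the Krt17 intervals for Upk2-Cre mutants against Upk2-Cre (−3.32 to −0.12) and for the driver difference (0.14 to 4.56) do not, although neither was called.

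BBN bladders of one group could differ widely, and more so for Krt6b and Krt16 than for most genes. The within-group SD of Krt6b over the BBN groups was 2.20, at the 98.8th percentile of all genes tested, and that of Krt16 was 1.93, at the 97.5th, where the median gene had 0.586. Krt6a stood at percentile 84.1, Krt15 at 83.6, Krt17 at 80.6, Krt14 at 68.1 and Krt5, with 0.635, at 54.9. The span from the lowest to the highest BBN array was 420-fold for Krt6b and 150-fold for Krt16, and 5.10-fold for Krt5. After quantile normalization these spans were 249-fold, 80.2-fold and 2.84-fold, and without Krt5-Cre R172H array 3 they were 60.6-fold for Krt6b and 38.8-fold for Krt16. Without that array the within-group SD was 1.52 for Krt6b and 1.54 for Krt16, at percentiles 94.1 and 94.4, and that of Krt6a was 0.903, at 74.6. Krt5-Cre R172H was the most spread group for both Krt6b and Krt16, with Krt6b at 8.22, 8.61, 0.60 and 4.89 on its 4 arrays and Krt6a at 9.75, 9.39, 6.18 and 8.08. In that group arrays 1 and 2 are on scanner 1 and arrays 3 and 4 on scanner 2.

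Scanner moved with the level of several members. Over BBN arrays, scanner 1 (n = 11) lay above scanner 2 (n = 8) by 2.30 for Krt6b, 2.25 for Krt16, 1.01 for Krt6a, 0.88 for Krt17, 0.69 for Krt14 and 0.53 for Krt5. For Krt15 it lay below scanner 2 by 1.02. Groups were unevenly divided between the scanners. The Krt5-Cre R270H and Upk2-Cre R270H arrays were all on scanner 1, and the Upk2-Cre R172H arrays all on scanner 2. Without a scanner block, the levels of these groups hold genotype and scanner together. For the animal code shared by Trp53 het arrays 1 and 2, the scanner 1 array stood 2.31 above the scanner 2 array for Krt16 and 1.58 for Krt6b, and after quantile normalization 1.90 and 1.07. For Krt5 that gap was 1.87, and 0.072 after quantile normalization. Both arrays lacked Xist and had Y-linked genes above background, and whether they hold one extract is not given. The part of the scanner in the spread was not tested.

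Over the 19 BBN arrays the keratins other than Krt15 went up and down together. Of 21 pairs of members, 16 had a Pearson correlation called at a permutation p adjusted over the 21, and 15 by Spearman's rho. All 15 pairs without Krt15 were called, with r from 0.597 to 0.937, and 1 of 6 with Krt15. This count depended on the scaling. After quantile normalization, or in the authors' deposited normalized values, 3 of 21 pairs were called, Krt6b with Krt16, Krt5 with Krt14 and Krt6a with Krt6b, and the r of Krt5 with Krt16 went from 0.66 to 0.08. Each member's median correlation with all other genes under the first scaling lay between −0.07 and 0.12. On scanner 1 alone (n = 11) 13 pairs were called and on scanner 2 alone (n = 8) 0, although all 21 were positive there. Without the arrays that went against their sex label 7 were called.

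The closest pair was Krt6b and Krt16, a type II and a type I stress keratin, with r = 0.937 and rho = 0.951 (permutation p, adjusted over 21 pairs, 7e-05). Without the 2 arrays farthest from the median, r was again 0.937, and it was 0.964 on scanner 1, 0.899 on scanner 2 and 0.92 after quantile normalization. Krt5 and Krt14, the filament pair of basal cells, gave r = 0.902 and rho = 0.909, with 0.815 without the 2 farthest arrays, 0.885 and 0.928 within the scanners and 0.79 after quantile normalization. Krt6a and Krt6b gave r = 0.823 and rho = 0.909, with 0.856 without the 2 farthest arrays, 0.879 and 0.683 within the scanners and 0.679 after quantile normalization. Probes of these near-identical paralogs may read each other's RNA, so that value is uncertain. Krt15 and Krt17 ran opposite, with r = −0.50 (permutation p = 0.0223, adjusted 0.0293) and rho = −0.25. That relation rested on Krt5-Cre R172H array 1, without which r was −0.19, and on scanner 2 alone it was 0.53.

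**Figure D3:**
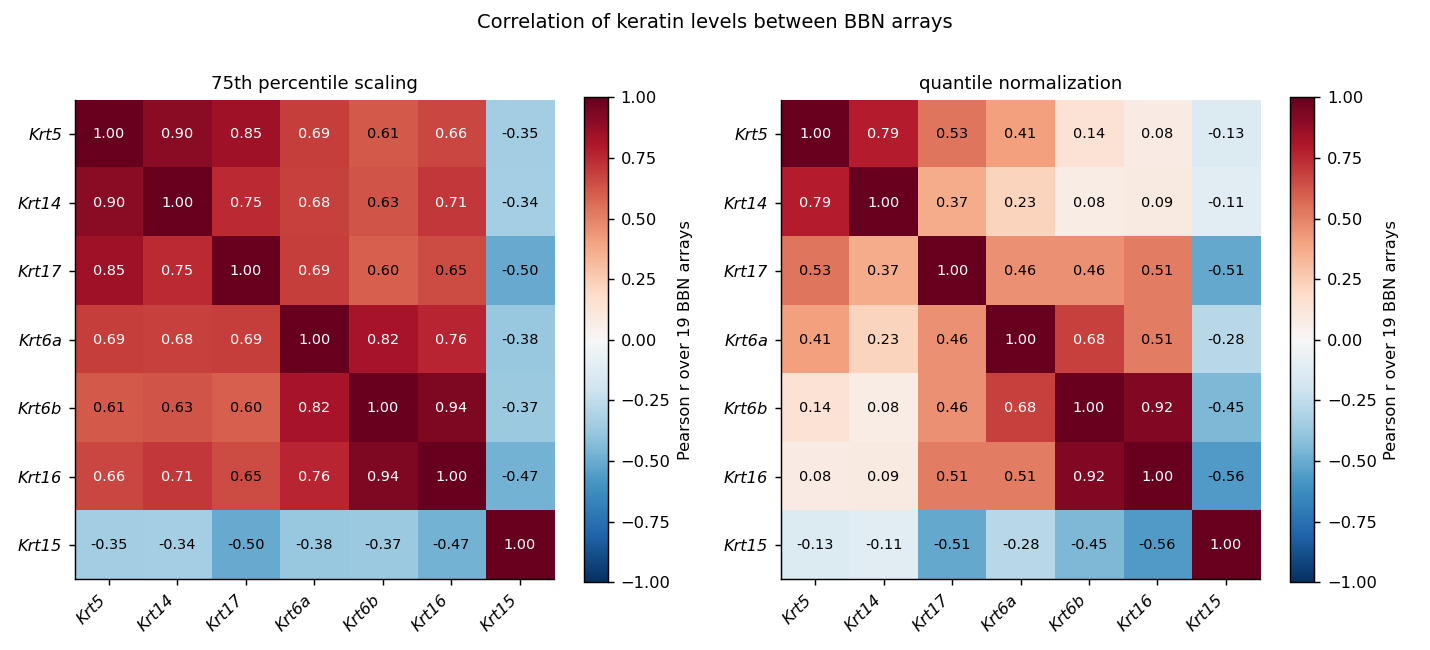
Pearson correlation of each pair of keratins over the 19 BBN arrays as a coloured grid, from blue for negative to red for positive, after scaling to the 75th percentile and after quantile normalization. Pairs without Krt15 run from 0.597 to 0.937 under the first scaling, and only Krt6b with Krt16, Krt5 with Krt14 and Krt6a with Krt6b were called under both.

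**Figure D4:**
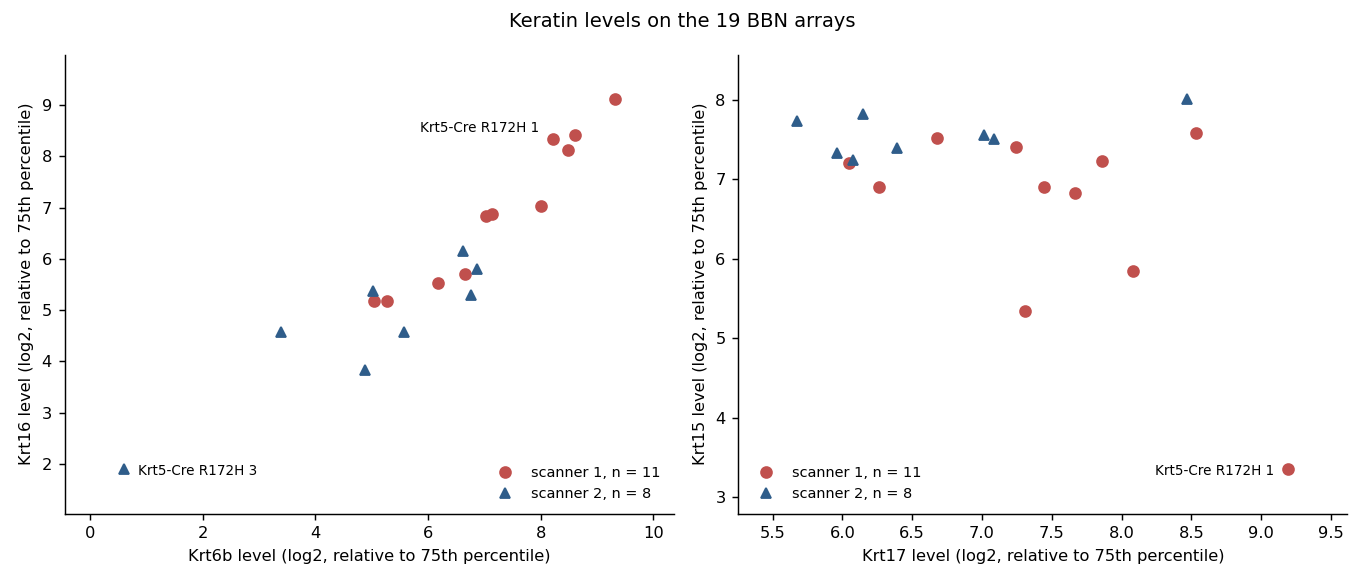
Levels of pairs of keratins (log2, relative to the 75th percentile) on each array, with BBN arrays marked by scanner. Krt6b and Krt16 lie along a line over the BBN arrays (r = 0.937), and in the panel of Krt17 (horizontal) and Krt15 (vertical) the array Krt5-Cre R172H 1 lies apart from the others at a Krt15 level of 3.35.

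The genes whose level was most like that of each member over the 19 BBN arrays are given by Pearson's r, as a description. For Krt16 they were Pglyrp4 (r = 0.964), Lypd3 (0.953) and Sult2b1 (0.932), and for Krt6b they were Evpl (0.942), Serpinb1a (0.940) and Serpinb1c (0.936). Pglyrp4 is a peptidoglycan recognition protein of epithelia, Sult2b1 a cholesterol sulfotransferase of the skin and Evpl the cornified envelope protein envoplakin. After quantile normalization these 6 values lay between 0.878 and 0.947. For Krt15 they were Enpp5 (0.849), Gata3 (0.806) and Mansc1 (0.804), where Gata3 is a transcription factor of luminal urothelium. The Krt15 values were 0.857, 0.812 and 0.911 on scanner 1, which holds the arrays low in Krt15, and −0.03, 0.00 and −0.29 on scanner 2.

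For the remaining members the likeness was lower after quantile normalization. Krt5 ran most like Trim29 (0.940, and 0.531 after it), Tmem147 (0.887, 0.354) and Uqcc2 (0.885, 0.520), and Krt14 like Actb (0.932, 0.354), Rplp2 (0.930, 0.627) and Rpl38 (0.928, 0.593). Actb encodes a cytoskeletal actin, and Rplp2 and Rpl38 encode ribosomal proteins. Krt6a ran most like Pkd1l2 (0.833, 0.534) and S100a14 (0.818, 0.602). Krt17 ran most like Srsf2 (0.883, 0.777), Ptbp1 (0.878, 0.786) and Rala (0.871, 0.727), the first 2 being regulators of splicing.

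Other keratins were read from a list of 12. Of these, 6 were called higher and 2 lower in BBN against normal, with a median of 1.17, where 23.7% of all genes were called higher and 19% lower. Krt13, a type I keratin of stratified mucosa and of urothelium, rose by 4.84 ± 0.50 (limma adjusted p = 2.43e-06), and its partner Krt4 rose by 2.62. Krt10 and Krt1, the pair of suprabasal epidermis, rose by 4.13 and 5.45. Krt8 and Krt18, the pair of simple epithelia and luminal cells, fell by 1.94 and 2.38 (limma adjusted p = 0.0191 and 0.00209). With the scanner as a block Krt8 was not called (−1.29, limma adjusted p = 0.152).

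Of 15 genes of desmosomes, hemidesmosomes and plakins, which anchor keratin filaments, 11 rose and 0 fell, with a median of 1.84. The shares over all genes were 23.7% higher and 19% lower, here and for the next list. The desmosomal cadherin Dsg3, above background on 0 of 3 normals, rose at least 85.4-fold. Pkp1 rose by 4.28, Dsc3 by 3.66 and Pkp3 by 1.80. Of 21 tested of 22 growth factors, cytokines and transcription factors tied to stress keratins, 11 rose and 2 fell, with a median of 1.43, or 1.13 with the 4 genes measured on one side at their bounds. Fosl1, an AP-1 subunit, rose at least 26.1-fold, the EGF receptor ligand Areg rose by 4.54, Sox2 by 2.92 and Tnf by 2.20. Fos fell by 1.25 and Nfe2l2, the regulator of the antioxidant response, fell by 1.24.

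Some markers of other bladder cells were called as well, and their part in the keratin result was not tested. Over all genes, 23.7% were called higher and 19% lower. The 1 of 7 general epithelial and 1 of 5 skeletal muscle markers called higher did not exceed that share. All 9 luminal urothelial markers fell, with a median of −5.27, among them the uroplakins Upk2 by 5.81, Upk1a by 5.27 and Upk3a by 9.02, and Snx31 fell at least 40.9-fold. Of 7 general epithelial markers 1 rose, Cdh3 by 2.28. All 8 smooth muscle markers rose (5 after quantile normalization), with a median of 2.24 and summed levels from 6.58 to 10.10 under BBN against 5.64 to 6.57. Of 6 tested fibroblast markers 5 fell (2 with the scanner as a block), with a median of −2.33 and summed levels from 4.60 to 8.22 against 8.59 to 8.93. Of 8 leukocyte markers 3 rose, S100a9 by 8.39, S100a8 by 6.72 and Cd3e by 2.23, with summed levels from 4.19 to 8.18 against 4.43 to 4.62. With the scanner as a block Cd3e was not called (0.94, limma adjusted p = 0.104). Stressed epithelium also makes S100a8 and S100a9. Of 5 skeletal muscle markers 1 rose, Ckm, at least 6.59-fold, and its level and those of Myh4 and Myh1 were not above background in the normals. No gene of these 9 lists was called by limma in the 6 comparisons among BBN groups.

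The members sit in the keratin gene clusters, where some neighbours rose with them and others were not called. Of all genes, 23.7% were called higher and 19% lower. Within 150 kb on chromosome 11, which holds Krt15, Krt14, Krt16 and Krt17, 14 other genes were tested, of which 7 rose and 0 fell. Those 7 were Krt13, Krt32, Krt36, Krt42, Krtap16-1, Jup and P3h4, and Krt32 rose by 4.94 (limma adjusted p = 1.52e-05). Between Krt15 and Krt14, both Krt19 (−0.06, limma adjusted p = 0.901) and Krt9 (0.59, adjusted p = 0.161) were not called, while Krt13 on the other side of Krt15 rose. Within 150 kb on chromosome 15, which holds Krt6b, Krt6a and Krt5, 9 other genes were tested, of which 8 rose and 0 fell. They include the transcribed pseudogenes Gm5476, at least 496-fold higher, and Gm5478, at least 443-fold, and Krt75, at least 19.1-fold. The level of Gm5476 correlated with that of Krt6a at r = 0.912 over the BBN arrays, and a probe for one may read RNA of the other.

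**Figure D5:**
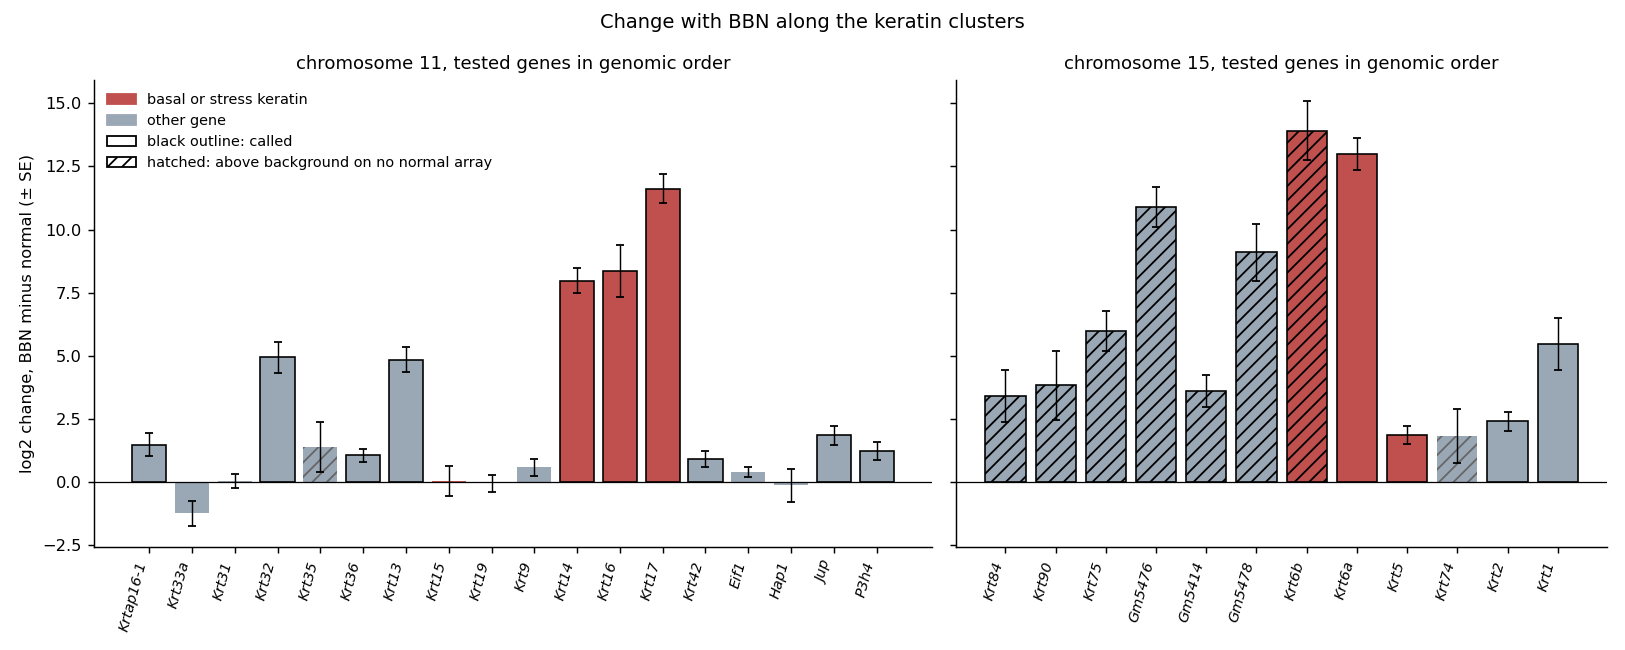
Log2 change of BBN against normal (vertical axis) for each tested gene within 150 kb of the members, in the order of the genes along chromosomes 11 and 15 (horizontal axis), with members in red, other genes in grey, SE as error bars, called genes outlined in black and genes above background on 0 of 3 normals hatched. Krt15 and its neighbours Krt19 and Krt9 sit near 0 next to Krt13, Krt14, Krt16 and Krt17, which rose.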

How the data were processed

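The data are 22 one-colour (Cy3) Agilent arrays, and the number of arrays limits the precision. The authors deposited scanner output as spot intensity, background-subtracted within each array and not scaled between arrays, from Agilent Feature Extraction 11.0.1.1 per the file headers (9.1 per the submitters' processing notes). The authors also deposited a table of log2 values with a common distribution in every column, for which the submitters' processing notes name limma without its steps. It served as an alternative. The genome build behind gene positions is not given in the sources used here, and positions and promoters follow RefSeq (GRCm38.p6).

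Log2 of the processed signal minus the array's 75th percentile was used, with control and flagged spots left out. Of 56605 probes 32994 have 1 symbol in the files, 0 several and 23611 none. The brightest probe stood for each of 22911 genes, and 17404 genes well above background on at least 2 arrays were tested, without 17 genes lost to flagged spots. limma 3.58.1 in R 4.3.3 fitted 8 group means, with BBN taken as the mean of the 7 BBN group means. Other work used Python 3.11.15, numpy 2.4.6, pandas 2.3.3, scipy 1.17.1 and matplotlib 3.10.9. Each method that runs over all genes was tested on simulated data.

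Groups come from the array titles. Replicates are separate arrays with their own animal codes except 2 codes that a pair of arrays shares, so p-values measure the spread between these arrays. Array numbers did not pair the groups. Marker sums are the log2 of summed signals. Pair shifts used exact permutation and pair correlations 100000 permutations. Alternatives covered the background correction (normexp, offset 50), scaling, filters, probes, scanner, slide, replicate number, sex label, shared codes, array weights and leaving out each array. The text names the 7 keratins and Trp53, up to 4 genes of smallest p per list and any called against the list's main direction, and the 3 genes most like each keratin, of which 1 for Krt6a is not reported here. Neighbouring genes were named after their values were seen. The members and lists were chosen with earlier results of these data known.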

Additional observations from a re-analysis of the deposited data

Results flagged for a closer look

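Krt15 on Krt5-Cre R172H array 1 stood at 3.35 on the log2 scale, the lowest of 4 arrays, with the next at 6.91. The gap to the nearest array was 0.879 of the group's range, above the critical value of Dixon's test for 4 values. It was 1 flag among 14 tests, of the highest and the lowest array for each of 7 genes, all on the same 4 arrays, and chance flags about 1 in 20 groups.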

How the results depend on the processing

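The 6 keratins that rose against normal kept their direction and call under every alternative that could test them, 35 for Krt6b, 36 for Krt6a and 37 for the others. In the deposited values 5 of 6 tested were called and under the strict filter 4 of 5. Krt15 kept no sign in BBN against normal: −0.10 with normexp, −0.28 with quantile normalization and in the deposited values, −0.024 with slide as a random block, 0.77 with the scanner block, and from −0.076 to 0.18 with single arrays left out. In Krt5-Cre R270H against normal it was 0.44 with the scanner block. In Krt5-Cre R172H it was from −1.17 to 0.18 with single arrays left out and 0.33 on the normals' scanner, a setting chosen after seeing the data. Krt5 in Upk2-Cre R270H was −0.071 with the scanner block. The replicate number as a block gave 6 keratins in BBN against normal, 41 group tests and −0.010 for Krt15, and changed no other call. Same-numbered arrays had a median correlation of 0.03, with 20 of 66 pairs above 0.1, so the numbers do not pair the arrays. Under the strict filter 27 of 35 group tests were called, since Krt6a and Krt6b were not tested, and the slide as a fixed block gave 1 call for Krt5-Cre mutants against Krt5-Cre. Krt6b against Krt6a, with no measured level in normals, was −1.33 with normexp. Krt16 against Krt14 shifted by −0.17 with normexp, −0.65 on the normals' scanner, and from −0.31 to 0.71 with single arrays left out. Krt15 against Krt5 was called with quantile normalization (−1.91) and in the deposited values (−1.81). Pair correlations numbered 3 called with quantile normalization, 3 in the deposited values, 7 without arrays against their sex label, 0 on scanner 2 and from 15 to 19 with single arrays left out, and Krt15 with Krt17 was 0.53 on scanner 2. The causes were not tested. Normal bladders were read on 1 scanner and 1 slide, so slide and BBN cannot be told apart, and dim probes of Krt6b in normals give bounds alone. The tissue label also differs between normals and BBN arrays and cannot be told apart from BBN.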
